A study of Mus musculus with 9 samples.

Results

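The nuclear genes of oxidative phosphorylation were described in single-nucleus RNA sequencing of mouse cortex and hippocampus. They were taken by symbol from the gene list of the count matrices: symbols starting with Nduf, Uqcr, Atp5 or Cox4 to Cox8, and Sdha, Sdhb, Sdhc and Sdhd, without pseudogene symbols holding -ps. The rule found 93 gene identifiers (92 symbols) among 31053 genes: 38 named as complex I subunits, 8 complex I assembly factors (Ndufaf), 4 of complex II, 8 of complex III, 18 of complex IV and 17 of complex V. All 93 were annotated as protein-coding, and they lay on 19 chromosomes. The symbols follow older usage. Ndufa4 is counted here with complex I by its name although its protein is now placed in complex IV. Cox7a2l is likewise counted with complex IV, and Atp5s with complex V, by name.

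The libraries came from wild-type male C57BL/6 mice, 1 mouse per library and 3 libraries per group. By the paper's methods, aged mice came from a colony of the National Institute on Aging and young mice from Jackson Laboratories. Age and supplier therefore cannot be told apart wherever aged are compared with young libraries below. The young AAV-EGFP mice were 5 months old and the aged AAV-EGFP and aged AAV-B3GNT3 mice 19 months old. Each had received, 8 weeks before the tissue was taken, a brain endothelial-targeting adeno-associated virus (AAV-PHP.V1 capsid, endothelial CLDN5 promoter) carrying EGFP alone or EGFP with B3GNT3, a glycosyltransferase that extends core 1 mucin-type O-glycans. No untreated mice were included, so all 3 groups carried virus. Cortex and hippocampus were pooled within a library, and nuclei rather than whole cells were sorted.

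Oxidative phosphorylation is carried out by 5 protein complexes of the inner mitochondrial membrane. Complex I (NADH dehydrogenase) and complex II (succinate dehydrogenase) feed electrons to complex III, cytochrome c carries them to complex IV, and complex V (ATP synthase) uses the resulting proton gradient to make ATP. Most subunits are encoded in the nucleus, made in the cytosol and imported, whereas a core of complexes I, III, IV and V is encoded by mitochondrial DNA; complex II is wholly nuclear. In brain, neurons depend on it for signalling, and endothelial cells are known for many mitochondria.

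The promoters of these genes are known to share sites for NRF1, for ETS factors such as GABP, and for YY1. RefSeq promoter sequences (GRCm38.p6, 250 bases before to 50 after the gene's start) were found for 74 of the 92 symbols, among 27025 genes. The ETS core CCGGAAG, searched on both strands, lay in 17 of 74 (23.0%) against 9.12% of all promoters of the same length. The NRF1 core GCATGCGC lay in 12 of 74 (16.2%) against 2.80%, and the YY1 core AAGATGG in 10 of 74 (13.5%) against 6.48%. The estrogen-related receptor core AAGGTCA lay in 8 (10.8%) against 4.66%, GGGCGG in 33 (44.6%) against 35.9%, CCAAT in 33 (44.6%) against 37.9% and TATAAA in 7 (9.46%) against 14.2%. At least one of the first 3 motifs lay in 33 of 74 member promoters (44.6%) and in 17.0% of all. A match is a description of letters and not a binding site. The 250 bases before the start are shown for 2 small subunits whose levels rose with age (Uqcr11, chr10:80406822-80407071, minus strand; Atp5e, chr2:174464102-174464351, minus strand, chosen after its values were seen), for the gene with the largest rise in excitatory neurons (Ndufb11, chrX:20617620-20617869, minus strand) and for an assembly factor that fell (Ndufaf4, chr4:24897833-24898082, plus strand). Each is read 5′ to 3′ on the gene's strand, and capitals mark complete matches to the ETS, NRF1, YY1, receptor, GGGCGG or CCAAT motifs on either strand, which can overlap.
Uqcr11: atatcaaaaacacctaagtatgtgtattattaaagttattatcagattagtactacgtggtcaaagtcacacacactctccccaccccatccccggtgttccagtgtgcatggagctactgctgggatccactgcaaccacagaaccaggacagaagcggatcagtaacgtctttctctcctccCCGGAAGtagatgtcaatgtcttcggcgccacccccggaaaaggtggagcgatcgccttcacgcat
Atp5e: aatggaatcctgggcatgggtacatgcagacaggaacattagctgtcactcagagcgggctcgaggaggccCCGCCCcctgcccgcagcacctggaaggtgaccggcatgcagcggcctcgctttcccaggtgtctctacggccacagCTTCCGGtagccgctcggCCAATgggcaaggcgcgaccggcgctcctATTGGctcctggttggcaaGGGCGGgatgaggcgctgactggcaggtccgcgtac
Ndufb11: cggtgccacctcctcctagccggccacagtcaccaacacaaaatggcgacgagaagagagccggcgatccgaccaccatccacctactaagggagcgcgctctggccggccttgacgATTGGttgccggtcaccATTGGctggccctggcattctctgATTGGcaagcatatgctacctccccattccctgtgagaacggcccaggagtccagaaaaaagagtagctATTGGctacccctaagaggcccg
Ndufaf4: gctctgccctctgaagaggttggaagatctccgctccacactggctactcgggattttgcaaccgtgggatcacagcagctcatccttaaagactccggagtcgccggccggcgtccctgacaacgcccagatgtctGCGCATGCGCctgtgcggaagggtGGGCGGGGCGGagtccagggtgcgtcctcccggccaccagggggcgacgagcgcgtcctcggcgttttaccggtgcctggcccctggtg
The assembly factor's promoter holds an NRF1 palindrome beside overlapping GGGCGG letters, Atp5e an ETS match between GGGCGG and CCAAT letters, and Ndufb11 only CCAAT letters in this window. Of the promoters of genes that rose with age in oligodendrocytes (described further on), 8 of 40 held the ETS core, 6 the NRF1 core and 5 the YY1 core; of the tested genes that did not rise there, 9, 6 and 5 of 31 did.

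The matrices held 47332047 to 79964605 UMIs (unique molecular identifiers, each 1 counted RNA molecule) per library, and 5788 to 9283 nuclei per library were kept. Libraries of a pair shared 7 to 37 cell barcodes, at most 0.414% of the smaller library. The nuclei fell into 10 classes named from marker genes, from 20357 oligodendrocytes and 20098 excitatory neurons to 707 brain endothelial cells (BECs, 44 to 114 per library), and 2673 of the 70404 kept nuclei (173 to 583 per library) were left unnamed and entered no class. Every marker on each class's own list was detected in that class. Striatal projection neurons numbered 137 to 618 per library, although the paper names only cortex and hippocampus as the tissue taken. Whether the dissection varied between libraries was not tested. B3gnt3 itself had 5 to 17 UMIs per library over all barcodes, with overlap of all groups, so it does not check the labels. Levels below are CPM (UMIs scaled to a total of 1000000), with library sizes corrected by trimmed mean of M values (TMM) within a class. They come from the 3′ ends of transcripts and from whole nuclear RNA, so they are compared for 1 gene across libraries or classes and not between genes. Each is a share of a class's UMIs and not a number per nucleus.

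The summed level of the 93 genes was higher in the aged AAV-EGFP libraries than in both other groups in 9 of the 10 classes with no overlap of libraries, and in astrocytes with overlap against the young libraries only. In excitatory neurons the sum was 1438 ± 51.9 CPM (mean ± SD, n = 3) for the young libraries, against 1652 ± 136 for aged AAV-EGFP and 1375 ± 56.5 for aged AAV-B3GNT3. In oligodendrocytes, the myelin-forming glia, it was 1888 ± 154, 2823 ± 418 and 1882 ± 149.98. The widest separation was in BECs, with 2695 ± 525, 4958 ± 278 and 2531 ± 458. The ratio of aged to young AAV-EGFP means ran from 1.15 in excitatory and striatal projection neurons to 1.84 in BECs, and that of aged AAV-B3GNT3 to aged AAV-EGFP means from 0.839 in striatal projection neurons to 0.511 in BECs. Aged AAV-B3GNT3 and young AAV-EGFP libraries overlapped in all 10 classes. No test was made of the sum.

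**Figure D1:**
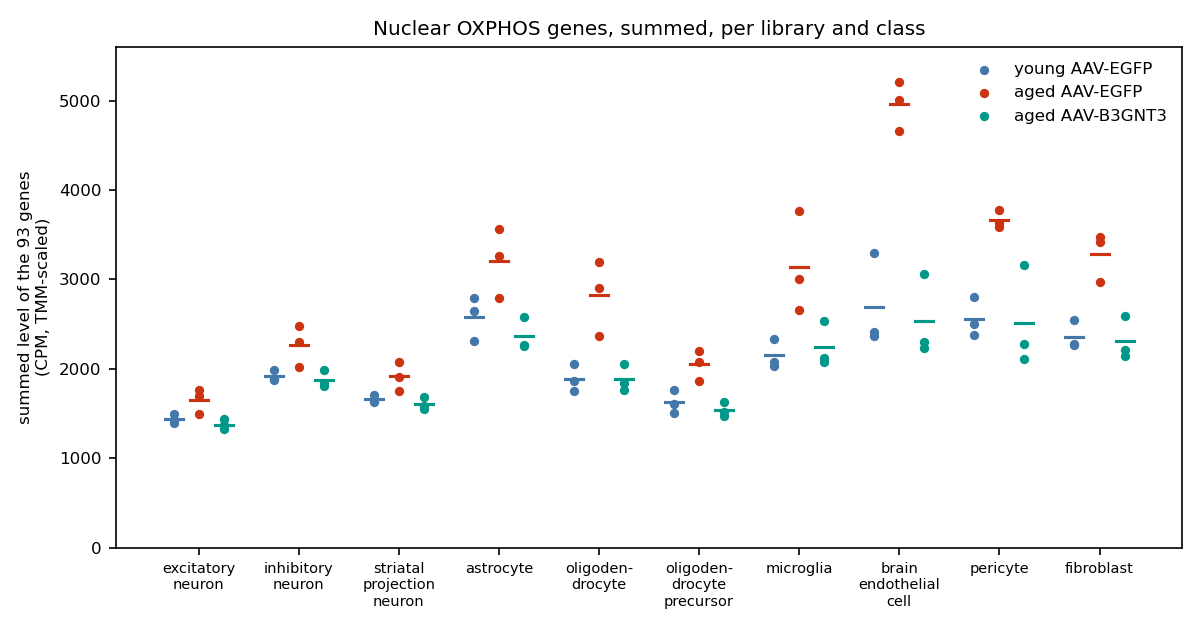
Summed level of the 93 nuclear genes of oxidative phosphorylation in each library (points) and its mean per group (bars), in CPM after TMM scaling, for the 10 named classes. The 3 aged AAV-EGFP points lie above the points of both other groups in each class except astrocytes, where 1 young library reaches the lowest aged AAV-EGFP library.

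Overlap between groups was read for each complex, with no test between complexes. In BECs the complex IV sum was 420.0, 552 and 392 in the young AAV-EGFP libraries, 963, 922 and 1184 in the aged AAV-EGFP libraries and 368, 385 and 519 in the aged AAV-B3GNT3 libraries. The aged AAV-EGFP libraries were all above the others. The complex III sum in the same cells was 163, 289 and 170.3 in the young AAV-EGFP libraries, 645, 512 and 419 in the aged AAV-EGFP libraries and 178, 195 and 209 in the aged AAV-B3GNT3 libraries, again without overlap. The complex II sum was 114, 197 and 142 in the young AAV-EGFP libraries, 212, 149 and 272 in the aged AAV-EGFP libraries and 196, 147 and 209 in the aged AAV-B3GNT3 libraries, and all groups overlapped. In oligodendrocytes complex IV was at 213, 299 and 233 in the young AAV-EGFP libraries, 376, 591 and 495 in the aged AAV-EGFP libraries and 215, 211 and 271 in the aged AAV-B3GNT3 libraries, whereas the 8 assembly factors were at 187, 201 and 203 in the young AAV-EGFP libraries, 232, 208 and 199 in the aged AAV-EGFP libraries and 170.2, 199.5 and 214 in the aged AAV-B3GNT3 libraries. The assembly factor sum overlapped between all groups, and the complex IV sum separated the aged AAV-EGFP libraries from both others.

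Other quantities moved with these sums. The summed level of 82 cytosolic ribosomal protein genes was 2982 to 4647 CPM in BECs of the young AAV-EGFP libraries, 8096 to 9522 in the aged AAV-EGFP and 2944 to 3835 in the aged AAV-B3GNT3 libraries, and in oligodendrocytes 1197 to 1459.9, 1907 to 2962 and 1170.2 to 1408. The aged AAV-EGFP libraries were highest for it without overlap in all 10 classes. The 13 mitochondrially encoded genes summed in oligodendrocytes to 85.8 to 142, 125 to 208 and 64.7 to 105 CPM, which overlapped between young and aged AAV-EGFP libraries. Nuclei were sorted and these genes lie on mitochondrial DNA, so their UMIs come from RNA made outside the nucleus. How this RNA came to be counted with the nuclei was not tested. The BEC marker list (9 of 9 detected) summed in BECs to 10192 to 11917, 17735 to 18652 and 9793 to 11163, so it was also highest in aged AAV-EGFP libraries. Free RNA from other cells was estimated from the share of other classes' markers in a class, relative to their share in the whole library. It made up 49.9 to 54.7% of oligodendrocyte UMIs in the young libraries, 48.4 to 50.3% in those of aged AAV-EGFP and 49.6 to 54.8% in those of aged AAV-B3GNT3 mice. In BECs the estimates were 33.9 to 41.4%, 24.9 to 37.3% and 35.3 to 42.3%. The estimate separated the groups elsewhere. In microglia it was 38.7 to 41.2%, 23.4 to 31.1% and 34.5 to 36.6%, with no overlap between any groups, and in astrocytes 42.7 to 45.7%, 30.9 to 37.5% and 33.8 to 39.8%, where the young libraries lay above both aged groups. In both classes it was thus lower in aged than in young AAV-EGFP libraries, while the summed member means were higher.

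Oligodendrocytes were 1 cluster, but a finer clustering placed their nuclei differently by group. Its cluster 0 held 2051, 1678 and 1114 nuclei of the young, 829, 778 and 298 of the aged AAV-EGFP and 943, 2474 and 1670 of the aged AAV-B3GNT3 libraries, and cluster 2 held 26, 26 and 24, then 735, 1293 and 1477, then 383, 76 and 360. Inside cluster 0 the summed member level, without TMM scaling, was 1768 to 2064 CPM in the young, 2681 to 3754 in the aged AAV-EGFP and 1881 to 2235 in the aged AAV-B3GNT3 libraries, and inside cluster 2 it was 1505 to 2335, 2431 to 3068 and 1879.8 to 2161. In both clusters the aged AAV-EGFP libraries were above all others. In the third large cluster, with 1602 to 1771, 1897 to 2601 and 1681 to 1971, they were above the young libraries and overlapped the aged AAV-B3GNT3 libraries. These levels are shares of a cluster's UMIs and not numbers per nucleus. In cluster 0 each aged AAV-EGFP library had fewer UMIs per nucleus than each young library. Member UMIs per nucleus there overlapped between all groups. The young libraries held only 71, 105 and 137 member UMIs in cluster 2. No gene was tested within these clusters. Inhibitory neurons were several clusters whose shares also differed by library. The largest held 654 of 1129, 778 of 1291 and 315 of 681 nuclei in the young libraries. It held 467 of 900, 114 of 860 and 248 of 735 in the aged AAV-EGFP libraries. In the aged AAV-B3GNT3 libraries it held 133 of 478, 267 of 806 and 450 of 909. The part of these quantities in the results below was not tested, beyond the refits stated there.

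Ageing was read from aged against young AAV-EGFP libraries, with 1 model per class over all 9 libraries and all genes that passed a filter on low counts. Of the 93 members, 27 were tested in BECs, 59 in microglia, 87 in inhibitory neurons and 86 in each of the other classes tested (excitatory neurons, astrocytes and oligodendrocytes). In no class were 5 of them tested: Cox8c, Cox8b, Cox7a1, Cox4i2 and Ndufa4l2. Members that were too low to be tested are not counted as unchanged. Some passed the filter only with the help of the aged AAV-EGFP libraries: without these, 14 of the 27 BEC members and 21 of the 59 microglial members would not have been tested, against 11.98% and 9.06% of all genes tested there, 2 in astrocytes, 1 in oligodendrocytes and 0 in the other 2 classes. The BEC and microglial counts are therefore given as a description and support nothing.

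In oligodendrocytes, whose largest finer cluster was cluster 0 in the young and cluster 2 in 2 of the 3 aged AAV-EGFP libraries, 48 of 86 tested members rose with age, against 10.9% of all 13218 genes tested, and 1 fell, against 10%. The median log2 fold change of the members was 0.73, and that of all genes 0.02. These are changes in a share of UMIs. The young libraries held 5661699, 4433708 and 3576941 UMIs in 2398, 1890 and 1331 oligodendrocyte nuclei. The aged AAV-EGFP libraries held 3864227, 4405812 and 5382061 in 1956, 2591 and 2618, fewer per nucleus in each. The part of this difference in the calls was not tested. In excitatory neurons 28 rose (background 7.51% of 16844 genes) and 2 fell (6.77%), with a median of 0.33 against 0.02. In astrocytes 22 rose (4.67% of 12704) and 1 fell (7.09%), with a median of 0.42 against -0.01. Microglia had 6 rises among 59 (3.37% of 7768) and 0 falls (5.36%), and BECs 5 among 27 (2.71% of 4349) and 0 falls (1.93%). Inhibitory neurons had 1 rise (0.733% of 14457) and 0 falls (0.429%), although 38 of 87 members had an unadjusted p under 0.05 (22.7% of all genes) and DESeq2 called 9 rises (2.41% of 13732 genes) and 1 fall (2.02%). Altogether 51 of the 88 members tested in any class rose in at least 1 of the 6 classes and 3 fell in at least 1, against 15.4% and 14.2% of the 17650 genes tested in any class; 1 gene, Cox4i1, rose in 5 classes.

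Among complex I subunits 18 of 37 tested rose in oligodendrocytes, 11 of 37 in excitatory neurons and 10 of 37 in astrocytes. Of all genes tested, 10.9%, 7.51% and 4.67% rose in these classes. These shares are the background for the ageing counts by complex here and below. Ndufb9, an accessory subunit of the membrane arm (chr15:58933756-58939488, GRCm38, plus strand), was at 6.91, 11.5 and 8.76 CPM in the young AAV-EGFP libraries, 20.5, 32.2 and 24.4 in the aged AAV-EGFP libraries and 5.36, 6.26 and 8.95 in the aged AAV-B3GNT3 libraries. All aged AAV-EGFP libraries were above all others, with an ageing log2 fold change of 1.52 ± 0.26 (log2 ± SE, edgeR adjusted p = 0.00312). Its annotated locus overlaps the same-strand gene Gm49356, so reads could be shared. Ndufb11, an X-linked accessory subunit of the membrane arm (chrX:20615326-20617619, minus strand), was low in excitatory neurons, at 2.22, 2.76 and 1.42 CPM in the young AAV-EGFP libraries, 4.23, 7.05 and 5.68 in the aged AAV-EGFP libraries and 2.18, 2.07 and 3.01 in the aged AAV-B3GNT3 libraries. The aged AAV-EGFP libraries again did not overlap the others, and it rose by 1.41 ± 0.27 (log2 ± SE, edgeR adjusted p = 0.0113). Ndufa4 was at 27.1, 41.3 and 27.4 CPM in the young AAV-EGFP libraries, 57.2, 101 and 70.3 in the aged AAV-EGFP libraries and 26.0, 23.6 and 35.4 in the aged AAV-B3GNT3 libraries of oligodendrocytes. The aged AAV-EGFP libraries lay above the rest, with an ageing difference of 1.25 ± 0.24 (log2 ± SE, edgeR adjusted p = 0.00419). In excitatory neurons it rose by 0.91 ± 0.21 (log2 ± SE, edgeR adjusted p = 0.0200).

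The member of complex I with most UMIs went the other way. Ndufs4, an accessory subunit close to the NADH-oxidizing arm (chr13:114287795-114388258, minus strand, a span of 100464 bases), was at 77.1, 105 and 89.6 CPM in the young AAV-EGFP libraries, 62.7, 73.5 and 56.1 in the aged AAV-EGFP libraries and 62.7, 68.5 and 65.3 in the aged AAV-B3GNT3 libraries of oligodendrocytes. Young libraries were above all aged ones, and it fell by 0.50 ± 0.14 (log2 ± SE, edgeR adjusted p = 0.0284). In excitatory neurons its log2 fold change was -0.17 ± 0.11 (log2 ± SE, edgeR adjusted p = 0.309), and it was not called. Ndufs1, the largest iron-sulfur subunit of the electron-transfer arm, was named after its values were seen. It was at 74.5, 71.6 and 67.5 CPM in the young AAV-EGFP libraries, 66.2, 69.7 and 76.6 in the aged AAV-EGFP libraries and 73.4, 66.8 and 71.1 in the aged AAV-B3GNT3 libraries of excitatory neurons. Its ageing log2 fold change there was -0.01 ± 0.09 (log2 ± SE, edgeR adjusted p = 0.966), with all groups overlapping.

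The complex I assembly factors were mixed. In excitatory neurons 2 of 8 rose and 2 fell, against 7.51% and 6.77% of all genes. With counts this small, nothing is read about the assembly factors as a list. Ndufaf5, which hydroxylates an arginine of a complex I subunit during assembly (chr2:140170649-140203689, plus strand), was at 38.6, 42.6 and 40.9 CPM in the young AAV-EGFP libraries, 29.9, 21.8 and 21.7 in the aged AAV-EGFP libraries and 32.9, 37.1 and 31.5 in the aged AAV-B3GNT3 libraries. Young libraries were highest and aged AAV-EGFP libraries lowest without overlap. The ageing log2 fold change was -0.74 ± 0.13 (log2 ± SE, edgeR adjusted p = 0.00920) in excitatory neurons and -0.81 ± 0.18 (log2 ± SE, edgeR adjusted p = 0.0119) in astrocytes. Ndufaf4, an early assembly factor, was at 27.8, 32.1 and 33.3 CPM in the young AAV-EGFP libraries, 23.3, 23.6 and 23.9 in the aged AAV-EGFP libraries and 22.2, 24.9 and 24.7 in the aged AAV-B3GNT3 libraries. It was lower in both aged groups, with an ageing log2 fold change of -0.40 ± 0.11 (log2 ± SE, edgeR adjusted p = 0.0305). Ndufaf3, the partner of Ndufaf4 in assembly, rose in excitatory neurons by 1.03 ± 0.21 (log2 ± SE, edgeR adjusted p = 0.0134). The other rise, Ndufaf7, an arginine methyltransferase named after its values were seen, was 0.40 ± 0.12 (log2 ± SE, edgeR adjusted p = 0.0416).

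Complex II had 1 rise among 4 genes in oligodendrocytes (10.9% of all genes rose there) and a median log2 fold change of 0.32, against 0.72 for complex I. Sdha, Sdhb, Sdhc and Sdhd span 28027, 17991, 23439 and 7456 bases, against a median of 7456 over the 93 genes. The part of span in this contrast was not tested. Sdha, the flavoprotein that oxidizes succinate (chr13:74322254-74350280, minus strand), was at 92.1, 87.5 and 89.3 CPM in the young AAV-EGFP libraries, 96.5, 93.4 and 119 in the aged AAV-EGFP libraries and 109, 97.3 and 116 in the aged AAV-B3GNT3 libraries. The aged libraries were all above the young ones by a small margin, and its log2 fold change was 0.20 ± 0.13 (log2 ± SE, edgeR adjusted p = 0.270). The rise was Sdhb, the iron-sulfur subunit, named after its values were seen. It was at 18.8, 21.8 and 18.4 CPM in the young AAV-EGFP libraries, 27.5, 29.5 and 35.1 in the aged AAV-EGFP libraries and 21.8, 19.9 and 22.8 in the aged AAV-B3GNT3 libraries, with a log2 fold change of 0.65 ± 0.16 (log2 ± SE, edgeR adjusted p = 0.0139), and it also rose in excitatory neurons, by 0.42 ± 0.12 (log2 ± SE, edgeR adjusted p = 0.0347).

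In complex III, 5 of 8 genes rose in oligodendrocytes and 3 of 8 in excitatory neurons. Uqcrq, a small ubiquinone-binding subunit (chr11:53427922-53430831, minus strand), was at 11.2, 10.8 and 10.8 CPM in the young AAV-EGFP libraries, 19.7, 37.4 and 31.0 in the aged AAV-EGFP libraries and 11.5, 9.95 and 15.1 in the aged AAV-B3GNT3 libraries of oligodendrocytes. The 3 young libraries lay within 1 CPM of each other and below all aged AAV-EGFP libraries, a difference of 1.43 ± 0.24 (log2 ± SE, edgeR adjusted p = 0.00313). In excitatory neurons it rose by 0.99 ± 0.21 (log2 ± SE, edgeR adjusted p = 0.0145). Uqcrc2, a core protein and the complex III gene with most UMIs, had a log2 fold change of 0.22 ± 0.13 (log2 ± SE, edgeR adjusted p = 0.250) in oligodendrocytes and was not called.

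In complex IV, 10 of 12 tested genes rose in oligodendrocytes, 7 of 13 in astrocytes, 5 of 12 in excitatory neurons, 3 of 6 in BECs and 1 of 11 in microglia. The BEC and microglial counts are a description, and the BEC count includes Cox7c, tested only through the aged AAV-EGFP libraries. Cox4i1, the ubiquitous isoform of the largest nuclear subunit (chr8:120668222-120674207, plus strand, overlapping the same-strand gene Gm20388), was at 24.4, 29.6 and 24.2 CPM in the young AAV-EGFP libraries, 46.2, 88.6 and 58.6 in the aged AAV-EGFP libraries and 21.0, 20.5 and 24.3 in the aged AAV-B3GNT3 libraries of oligodendrocytes. The aged AAV-EGFP libraries were all above the other 6, an ageing log2 fold change of 1.30 ± 0.21 (log2 ± SE, edgeR adjusted p = 0.00287). It rose by 0.92 ± 0.20 (log2 ± SE, edgeR adjusted p = 0.0147) in excitatory neurons and by 0.92 ± 0.23 (log2 ± SE, edgeR adjusted p = 0.0221) in astrocytes. Cox5a (chr9:57521274-57532426, plus strand), a matrix-side subunit, rose by 1.41 ± 0.27 (log2 ± SE, edgeR adjusted p = 0.00422) in oligodendrocytes and 1.14 ± 0.24 (log2 ± SE, edgeR adjusted p = 0.00923) in astrocytes. Cox8a, a small membrane subunit, rose by 1.38 ± 0.23 (log2 ± SE, edgeR adjusted p = 0.00303) and 0.96 ± 0.19 (log2 ± SE, edgeR adjusted p = 0.00655) in those classes. Cox5b, which binds zinc, was the only member called in inhibitory neurons, at 7.10, 7.41 and 7.03 CPM in the young AAV-EGFP libraries, 12.1, 14.1 and 16.04 in the aged AAV-EGFP libraries and 5.32, 5.86 and 8.58 in the aged AAV-B3GNT3 libraries. Its aged AAV-EGFP libraries did not overlap the others, and the log2 fold change was 0.97 ± 0.20 (log2 ± SE, edgeR adjusted p = 0.0471). Cox6a1, by contrast, was at 11.6, 13.4 and 15.1 CPM in the young AAV-EGFP libraries, 12.3, 13.5 and 14.6 in the aged AAV-EGFP libraries and 10.9, 10.7 and 12.6 in the aged AAV-B3GNT3 libraries of excitatory neurons. There its young and aged libraries overlapped, with a log2 fold change of 0.02 ± 0.14 (log2 ± SE, edgeR adjusted p = 0.951).

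In complex V, 12 of 17 gene identifiers rose in oligodendrocytes and 6 of 17 in excitatory neurons. The 17 include 2 identifiers named Atp5o. Atp5g1, Atp5g2 and Atp5g3 encode the same mature c-ring protein. In oligodendrocytes they rose by 1.04 ± 0.27 (log2 ± SE, edgeR adjusted p = 0.0173), 0.74 ± 0.15 (log2 ± SE, edgeR adjusted p = 0.00597) and 0.90 ± 0.24 (log2 ± SE, edgeR adjusted p = 0.0198), and Atp5g2, with the smallest SE, was at 25.7, 28.5 and 29.8 CPM in the young AAV-EGFP libraries, 40.4, 53.0 and 46.1 in the aged AAV-EGFP libraries and 32.1, 29.5 and 35.8 in the aged AAV-B3GNT3 libraries. The identifier with most UMIs under a complex V symbol was 1 of 2 named Atp5o, a locus of 242585 bases that overlaps Donson, Cryzl1 and the other Atp5o on the same strand. Its counts cannot be assigned to 1 gene, and its log2 fold change in oligodendrocytes was 0.02 ± 0.22 (log2 ± SE, edgeR adjusted p = 0.958).

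BECs and microglia, the vascular lining and the resident immune cells of the brain, had few called members, all named after their values were seen. DESeq2 called fewer in each, with counts given in the last section. Of those called with age, Cox7c, Atp5a1 and Atp5h in BECs and Ndufa13, Ndufab1 and Atp5j in microglia are among the genes that passed the filter only with the aged AAV-EGFP libraries, and their calls are given as a description. In BECs these were Cox4i1, Cox7c, Cox8a, Atp5a1 and Atp5h, the last with 2.20 ± 0.52 (log2 ± SE, edgeR adjusted p = 0.0286). Atp5a1, the alpha subunit of the catalytic head of ATP synthase, was at 45.4, 52.6 and 51.1 CPM in the young AAV-EGFP libraries, 135, 130.4 and 147 in the aged AAV-EGFP libraries and 53.4, 60.6 and 41.7 in the aged AAV-B3GNT3 libraries, on 117 UMIs in all. Its aged AAV-EGFP libraries were all above the others, with 1.48 ± 0.32 (log2 ± SE, edgeR adjusted p = 0.0226). Cox4i1 was at 64.3, 61.4 and 45.4 CPM in the young AAV-EGFP libraries, 106, 149 and 204 in the aged AAV-EGFP libraries and 59.3, 21.6 and 65.6 in the aged AAV-B3GNT3 libraries, on 128 UMIs, with 1.44 ± 0.39 (log2 ± SE, edgeR adjusted p = 0.0436). In microglia Ndufa4, Ndufa13, Ndufab1, Ndufc2, Cox4i1 and Atp5j were called, with Ndufc2 at 1.82 ± 0.41 (log2 ± SE, edgeR adjusted p = 0.0118). Cox4i1 there was at 20.8, 13.7 and 28.3 CPM in the young AAV-EGFP libraries, 54.9, 68.2 and 64.7 in the aged AAV-EGFP libraries and 27.7, 18.1 and 47.7 in the aged AAV-B3GNT3 libraries, with 1.59 ± 0.38 (log2 ± SE, edgeR adjusted p = 0.0151).

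The ageing counts depended on single libraries and on the treatment of free RNA. They were also lower without doublet removal in astrocytes and with finer clustering in oligodendrocytes, with counts given in the last section. Omitting young AAV-EGFP replicate 1, 2 or 3 left 16, 15 and 1 calls in excitatory neurons, and omitting aged AAV-EGFP replicate 2 or 3 left 2 and 7. In oligodendrocytes 29 calls were made when young AAV-EGFP replicate 1 was omitted and 27 when it was aged AAV-EGFP replicate 2. For astrocytes the counts were 10, 13 and 4 on omitting young replicates 1, 2 and 3, and 35, 4 and 6 on omitting aged AAV-EGFP replicates 1, 2 and 3. Leaving out any 1 library gave 0 to 18 calls in inhibitory neurons, 1 to 15 in microglia and 0 to 6 in BECs, with the highest count in each without aged AAV-EGFP replicate 1. With free RNA subtracted, 22 members were called in excitatory neurons, 15 in oligodendrocytes and 0 in the other 4 classes. With the mitochondrial share as a covariate, 24 were called in astrocytes (23 higher, 1 lower) and 0 in the other 5. The share of all genes called in the same refits is not given, so these counts are not read as results about the members.

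**Figure D2:**
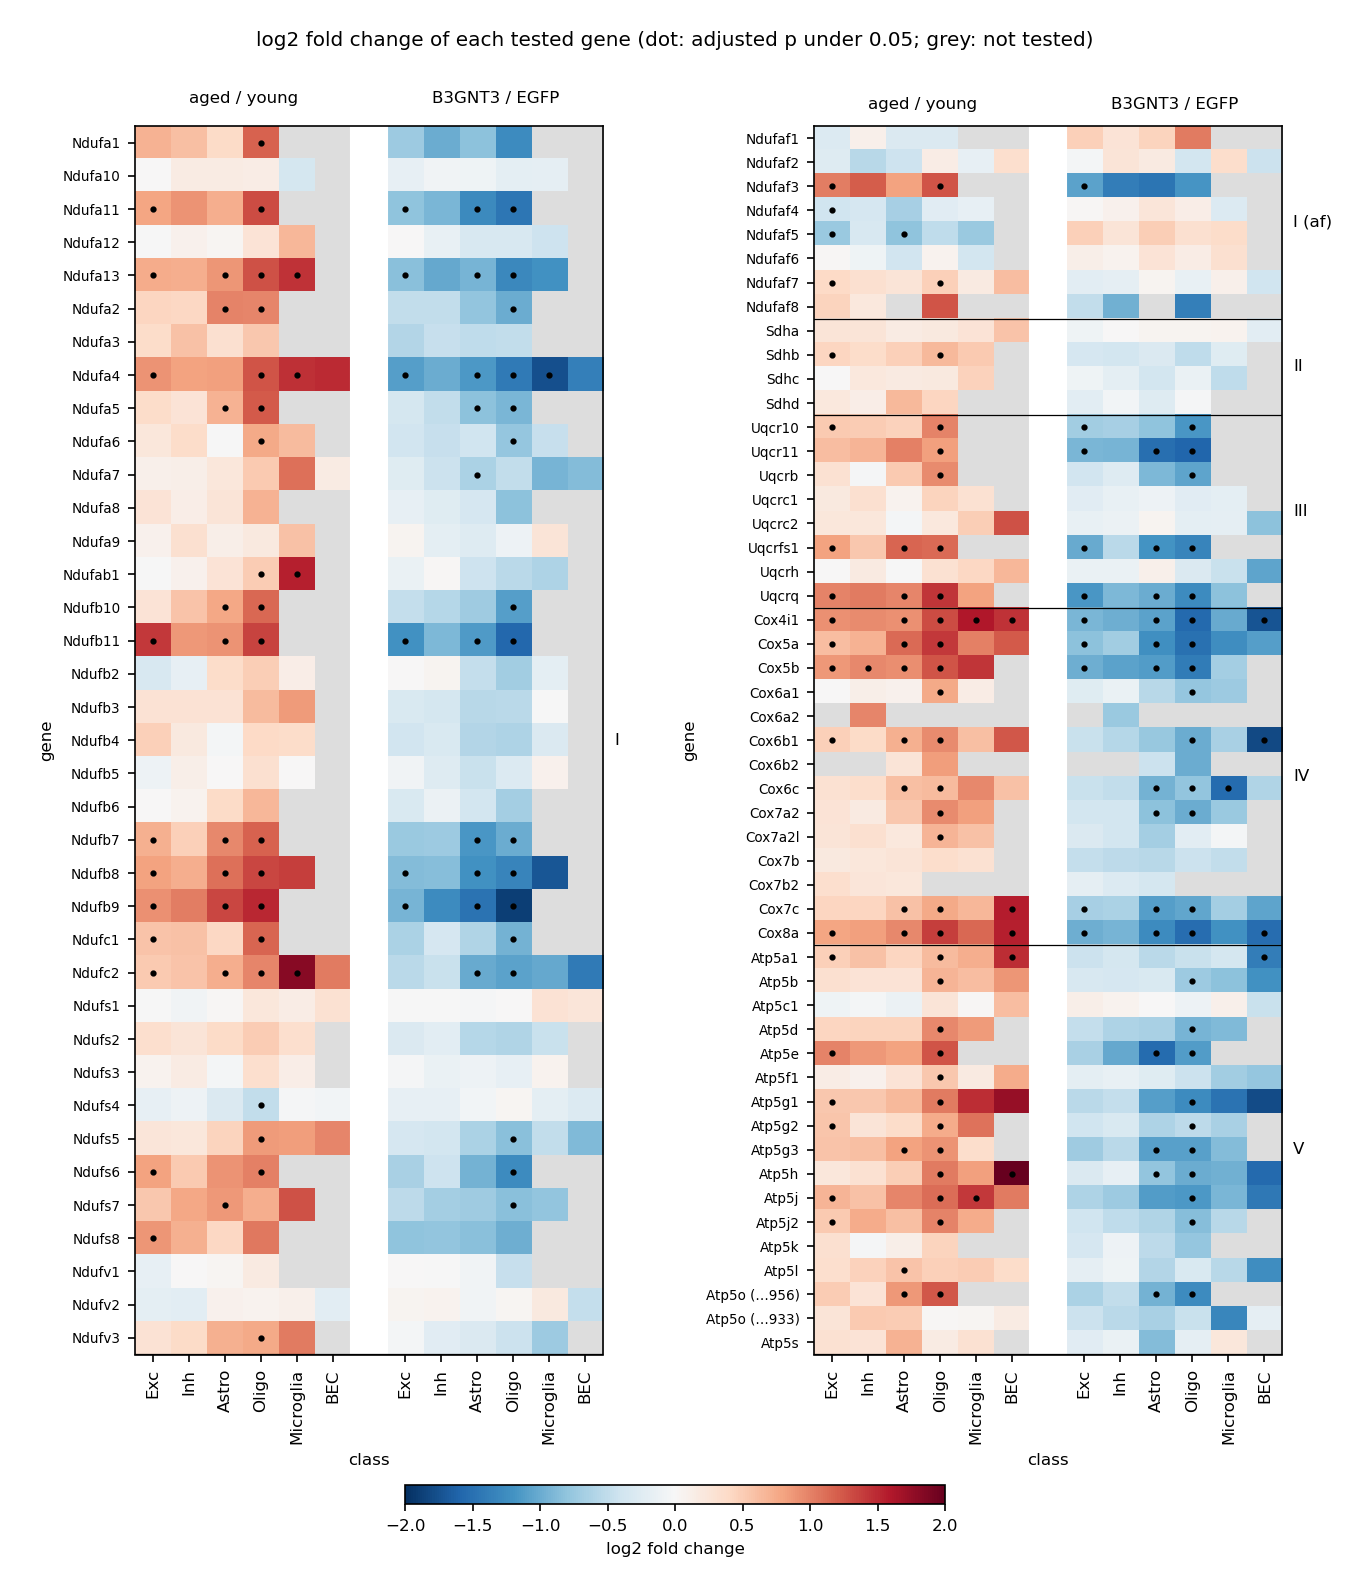
Log2 fold change of each member tested in at least 1 class (rows, by complex; af, assembly factors), for aged against young AAV-EGFP and for aged AAV-B3GNT3 against aged AAV-EGFP libraries in 6 classes; dots mark edgeR adjusted p under 0.05 and grey marks genes not tested. Ageing columns are mostly red and treatment columns mostly blue, with 48 rises and 40 falls in oligodendrocytes, and Ndufaf5, Ndufs1 and Ndufs4 are among the rows that do not follow this.

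Treatment was read from aged AAV-B3GNT3 against aged AAV-EGFP libraries, the question being which transcripts differ when the enzyme is delivered to endothelium of aged mice. This comparison shares the aged AAV-EGFP libraries with the ageing comparison, so high values in those libraries give a rise in one and a fall in the other. No member rose in any class. In oligodendrocytes, again with different shares of finer clusters 0 and 2, 40 of 86 fell (background 5.67% lower, 3.12% higher), with a median log2 fold change of -0.77 against 0.01 for all genes. In astrocytes 24 of 86 fell (2.5% lower, 1.44% higher), with a median of -0.60 against 0.02, and in excitatory neurons 16 of 86 (1.47% lower, 0.879% higher), with -0.37 against 0.01. BECs had 4 falls among 27 (2.48% lower, 0.966% higher), microglia 2 among 59 (0.554% lower, 0.103% higher), and inhibitory neurons 0 (0.00692% lower, 0% higher). In BECs 14 of the 27 and in microglia 21 of the 59 were tested only through the aged AAV-EGFP libraries. The counts in these classes are therefore a description and support nothing. In inhibitory neurons 40 of 87 members had an unadjusted p under 0.05 (16.2% of all genes), and DESeq2 called 6 falls (1.4% of 13732 genes). In all, 43 of 88 members fell in at least 1 class, against 5.98% of the 17650 genes tested in any. This count includes Atp5a1, which was called in BECs alone and passed the filter there only with the aged AAV-EGFP libraries.

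By complex, falls in oligodendrocytes numbered 16 of 37 complex I subunits, 0 of 8 assembly factors, 0 of 4 in complex II, 5 of 8 in complex III, 9 of 12 in complex IV and 10 of 17 identifiers in complex V. Of all genes tested there 5.67% fell. The counts of 0 lie near that share and do not set complex II or the assembly factors apart. The Ndufb9 values given above correspond to a log2 fold change of -1.88 ± 0.25 (log2 ± SE, edgeR adjusted p = 0.00574). Uqcr11, the smallest complex III subunit (chr10:80402997-80406830, minus strand), was at 10.3, 14.5 and 9.05 CPM in the young AAV-EGFP libraries, 15.7, 23.8 and 20.5 in the aged AAV-EGFP libraries and 4.56, 5.53 and 9.35 in the aged AAV-B3GNT3 libraries of oligodendrocytes. All aged AAV-B3GNT3 libraries were below all aged AAV-EGFP libraries, and 1 of them was above the lowest young library, with -1.59 ± 0.28 (log2 ± SE, edgeR adjusted p = 0.00914). Ndufb11 fell by 1.57 ± 0.27 (log2 ± SE, edgeR adjusted p = 0.00866) there. Cox5a, the complex IV gene with most UMIs, was at 13.5, 29.2 and 24.5 CPM in the young AAV-EGFP libraries, 43.8, 69.1 and 62.8 in the aged AAV-EGFP libraries and 18.3, 17.7 and 26.3 in the aged AAV-B3GNT3 libraries, a treatment log2 fold change of -1.49 ± 0.26 (log2 ± SE, edgeR adjusted p = 0.00939). Cox4i1 and Cox8a had -1.55 ± 0.21 (log2 ± SE, edgeR adjusted p = 0.00574) and -1.53 ± 0.23 (log2 ± SE, edgeR adjusted p = 0.00687).

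**Figure D3:**
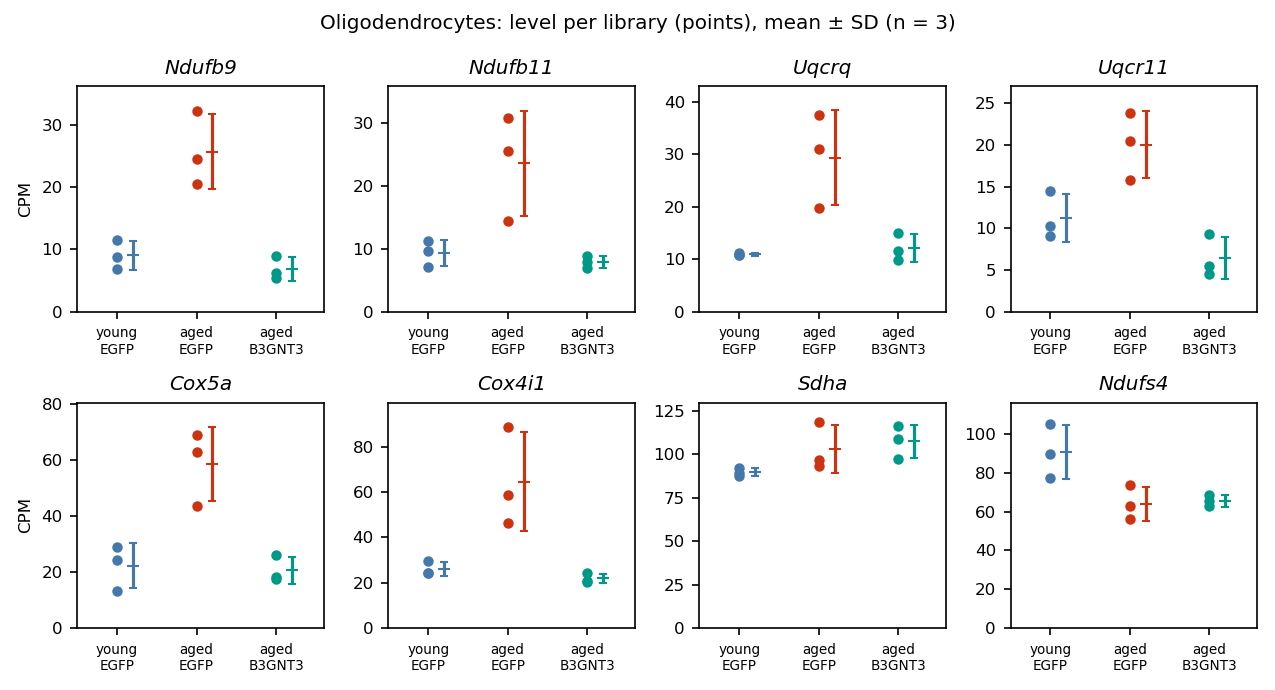
Level of 8 genes in oligodendrocytes of each library (points, CPM after TMM scaling) with the group mean and SD (n = 3), each panel with its own axis from 0. Ndufb9, Ndufb11, Uqcrq, Uqcr11, Cox5a and Cox4i1 have all 3 aged AAV-EGFP points above the other 6, whereas Sdha does not and Ndufs4 is highest in the young libraries.

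In excitatory neurons the largest falls were Ndufb11 with -1.22 ± 0.27 (log2 ± SE, edgeR adjusted p = 0.0448), Uqcrq with -1.16 ± 0.21 (log2 ± SE, edgeR adjusted p = 0.0344) and Ndufa4 with -1.10 ± 0.22 (log2 ± SE, edgeR adjusted p = 0.0375). Ndufa4 was at 11.2, 17.2 and 12.1 CPM in the young AAV-EGFP libraries, 19.3, 28.5 and 28.0 in the aged AAV-EGFP libraries and 8.92, 11.8 and 14.7 in the aged AAV-B3GNT3 libraries. Its aged AAV-EGFP libraries were all above the others. In astrocytes Cox8a was at 30.5, 45.9 and 34.2 CPM in the young AAV-EGFP libraries, 62.0, 84.2 and 69.0 in the aged AAV-EGFP libraries and 24.2, 32.4 and 33.6 in the aged AAV-B3GNT3 libraries, and again the aged AAV-EGFP libraries were highest. It fell by 1.26 ± 0.19 (log2 ± SE, edgeR adjusted p = 0.0103), Cox5a fell by 1.23 ± 0.24 (log2 ± SE, edgeR adjusted p = 0.0199) and Ndufa4 fell by 1.15 ± 0.27 (log2 ± SE, edgeR adjusted p = 0.0317).

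Several genes that were not called as rising with age were not called with treatment either. Ndufs4 had a treatment log2 fold change of 0.03 ± 0.14 (log2 ± SE, edgeR adjusted p = 0.907) in oligodendrocytes, Sdha 0.06 ± 0.13 (log2 ± SE, edgeR adjusted p = 0.790) and Uqcrc2 -0.19 ± 0.13 (log2 ± SE, edgeR adjusted p = 0.361). Ndufaf5, which had fallen with age, had 0.47 ± 0.13 (log2 ± SE, edgeR adjusted p = 0.0733) in excitatory neurons and 0.49 ± 0.18 (log2 ± SE, edgeR adjusted p = 0.138) in astrocytes, neither called. Ndufaf4 had 0.02 ± 0.11 (log2 ± SE, edgeR adjusted p = 0.931). In BECs the 4 falls, named after their values were seen, were Cox4i1, Cox6b1, Cox8a and Atp5a1 (Cox6b1 and Atp5a1 passed the filter only with the aged AAV-EGFP libraries), and Atp5a1 had -1.38 ± 0.33 (log2 ± SE, edgeR adjusted p = 0.0332). In microglia they were Ndufa4 with -1.76 ± 0.40 (log2 ± SE, edgeR adjusted p = 0.0499) and Cox6c with -1.53 ± 0.33 (log2 ± SE, edgeR adjusted p = 0.0412).

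The treatment counts depended on single libraries too. They also fell with finer clustering in oligodendrocytes and without doublet removal in astrocytes, with counts given in the last section. In oligodendrocytes 19 and 5 calls were left on omitting aged AAV-B3GNT3 replicates 1 and 2, and 19 and 25 on omitting aged AAV-EGFP replicates 2 and 3. In excitatory neurons omitting either of these aged AAV-B3GNT3 replicates left 0, omitting young replicates 2 and 3 left 3 and 0, and omitting aged AAV-EGFP replicates 1, 2 and 3 gave 34, 0 and 4. For astrocytes the counts were 1 and 15 on omitting aged AAV-EGFP replicates 2 and 3, and 2 and 0 on omitting aged AAV-B3GNT3 replicates 1 and 2. Leaving out any 1 library gave 0 to 4 calls in inhibitory neurons, 0 to 8 in microglia and 0 to 8 in BECs. With free RNA subtracted, 6 falls in oligodendrocytes were called and 0 members in the other 5 classes. With the mitochondrial share as a covariate, 9 members were called in astrocytes and 0 in the other 5. As for ageing, the share of all genes called in these refits is not given, and nothing is read from the counts about the members.

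The difference between oligodendrocytes and excitatory neurons was tested in 1 model over both classes with the library as a block. With age 10 of 88 members changed more in oligodendrocytes and 0 less, against 9.43% of 16549 genes called in either direction. The median difference in log2 fold change was 0.34 for members and 0.03 for all genes. For treatment 5 members fell more in oligodendrocytes and 0 less, against 4.63% of genes, with a median difference of -0.34 against -0.02. Both counts of members lie near the background. Cox5a differed in both comparisons, with an extra 0.80 with age in oligodendrocytes (edgeR adjusted p = 0.00413) and -0.68 with treatment (edgeR adjusted p = 0.0199).

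Members were also described by the length of their loci. The median annotated span of the 93 genes was 7456 bases. In oligodendrocytes the 49 members called with age had a median span of 5986 bases and the 37 not called 12991 bases. Over all genes, where 1443 were called higher and 1326 lower with age, the median was 44811 bases for those called and 27961 for all tested. These medians are not like for like, since the called members other than Ndufs4 all rose. With treatment the 40 members called, all lower, had a median span of 5274 bases and the 46 not called 13036. Over all genes those called, 412 higher and 750 lower, had 22094.5, below the 27961 of all tested. Spearman's rho between span and log2 fold change, a correlation across genes that share libraries and are not independent replicates, was -0.66 over 86 members with age and 0.69 with treatment. Over all 13211 tested genes with a position it was -0.41 and 0.39. Among the 26 members of up to 5000 bases the median ageing log2 fold change was 1.05, with 21 rises, and among 1215 genes of all kinds in that range it was 0.59. From 5000 to 20000 bases 46 members had a median of 0.67, with 27 rises, against 0.17 for 4018 genes. Over 20000 bases 14 members had a median of 0.17, with 0 rises and 1 fall (Ndufs4), against -0.11 for 7978 genes. With treatment the member medians in the same ranges were -1.07, -0.65 and -0.10, against -0.57, -0.10 and 0.10. In the 4 classes other than BECs and microglia rho ran from -0.66 to -0.49 with age and from 0.59 to 0.69 with treatment. Over all genes in those classes it ran from -0.41 to -0.25 and from 0.18 to 0.39. The values with age lay closest in astrocytes, with -0.49 for members and -0.38 for all genes. In microglia, where 2 members were called with treatment, their median span was 9783.5 bases against 9581 for those not called. Whether intronic reads were counted was not determined, and its part in this pattern was not tested. The part of span in the counts by complex was not tested either.

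**Figure D4:**
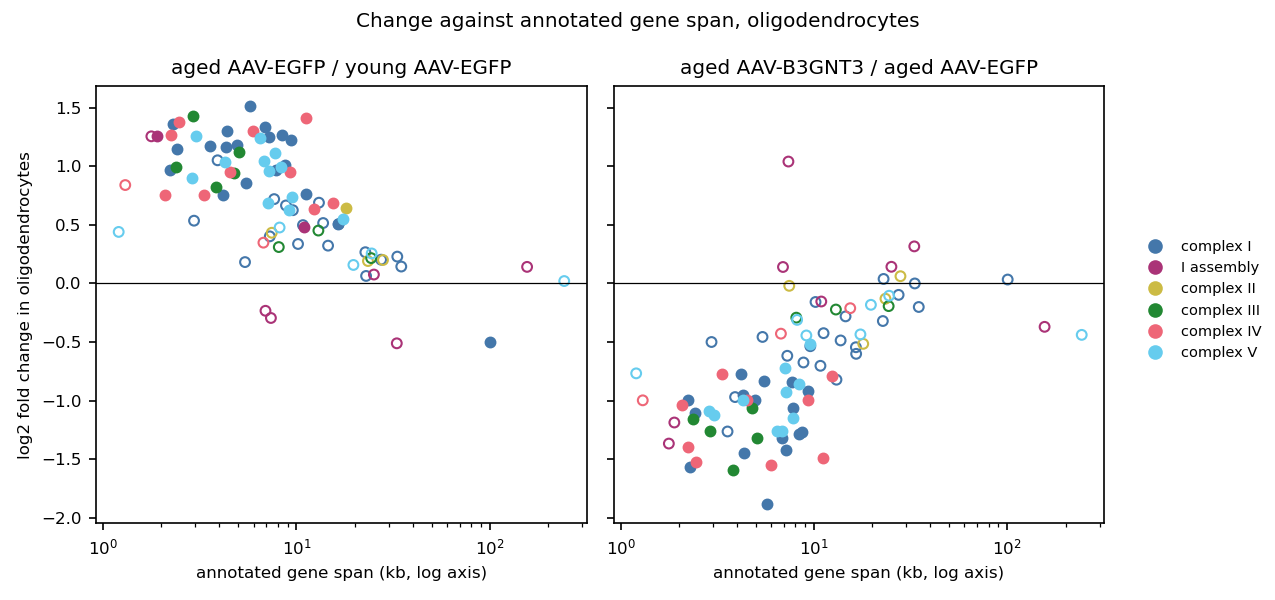
Log2 fold change in oligodendrocytes against annotated gene span (kb, log axis) for the 86 tested members, coloured by complex, for ageing (left) and treatment (right); filled points have edgeR adjusted p under 0.05. Members under 10 kb spread up to 1.52 with age and down to -1.88 with treatment, and over 20 kb the only filled point is Ndufs4 with age.

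Across classes, 85 members had at least 1000 UMIs in all. By the median of the 9 libraries, 48 of them were highest in BECs, 11 in pericytes, 9 in astrocytes, 7 in fibroblasts, 6 in microglia, 3 in inhibitory neurons and 1 in oligodendrocytes. Of 13426 genes of all kinds with as many UMIs, 14.3% were highest in BECs. BECs are the class with fewest UMIs in most libraries, and in 0 of the 48 did all BEC libraries lie above all libraries of the other classes. CPM is a share of a class's UMIs and not a number per nucleus. BEC nuclei had a median of 1872 UMIs, and the clusters of excitatory neurons had medians of 7884.5 to 13480.5. The 13 mitochondrially encoded genes summed to 789 to 1677 CPM in BECs and 21.0 to 38.7 in excitatory neurons. The part of either in the ranking was not tested. By the median of each group alone, 42 of the 85 were highest in BECs in the young libraries (13.9% of all genes), 56 in the aged AAV-EGFP (16.2%) and 29 in the aged AAV-B3GNT3 libraries (14.6%). All BEC libraries of the group lay above all its libraries of the other classes for 4, 13 and 1 members. Several minor isoforms were placed more narrowly. Ndufa4l2, a hypoxia-responsive relative of Ndufa4, had a lowest, median and highest library of 26.4, 51.5 and 109.7 CPM in pericytes (114 UMIs) and 7.57, 17.3 and 74.5 in BECs (36 UMIs), which overlap. In excitatory neurons it was at 0, 0.104 and 0.376, on 36 UMIs among 228316238. Cox4i2, the oxygen-responsive isoform of Cox4i1, was at 11.5, 38.6 and 61.4 in pericytes and 0, 4.33 and 34.0 in BECs, which also overlap, against 0.554, 0.977 and 1.96 in astrocytes and 0.0368, 0.188 and 0.309 in excitatory neurons. Every pericyte library was above every astrocyte and neuron library for both genes. Ndufa4 and Cox4i1 themselves had UMIs in all 10 classes, with Ndufa4 at 15.1, 35.2 and 75.9 and Cox4i1 at 6.73, 34.6 and 80.6 in pericytes. Free RNA can add UMIs to any class and was not estimated in pericytes, so UMIs alone do not show expression in every class.

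Cox6a2, the heart and muscle isoform of Cox6a1 that is also known from parvalbumin interneurons, was at 1.09, 1.84 and 3.94 CPM in inhibitory neurons and 0.0531, 0.162 and 0.720 in excitatory neurons, without overlap of libraries. Oligodendrocytes, at 0.262, 1.34 and 2.07, overlapped the inhibitory neurons. Of the 3 inhibitory clusters, drawn without using any member gene, the one richest in Pvalb and Sst (25.4 and 66.4 CPM over pooled nuclei) had 3.38 Cox6a2 CPM. The cluster richest in Vip had 1.37 and the third 0.976. Over single libraries these clusters ran from 2.12 to 6.05, 0.502 to 3.74 and 0 to 5.77 CPM, which overlap. Cox6b2, known best as a testis isoform, was at 3.94, 13.2 and 23.7 in pericytes, 8.81, 11.2 and 17.6 in fibroblasts and 4.42, 6.64 and 9.15 in astrocytes, but at 0, 0.0909 and 0.294 in excitatory neurons, below every astrocyte library. Cox7b2 was at 4.86, 16.4 and 31.9 in astrocytes, 8.74, 12.3 and 17.6 in striatal projection neurons and 0.992, 1.60 and 2.58 in oligodendrocytes; the first 2 overlap and both lie above the third. Cox7a1, the heart and muscle isoform, had 84 UMIs over all nuclei, Cox8b 8 and Cox8c 0, which allows up to 3 counts.

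**Figure D5:**
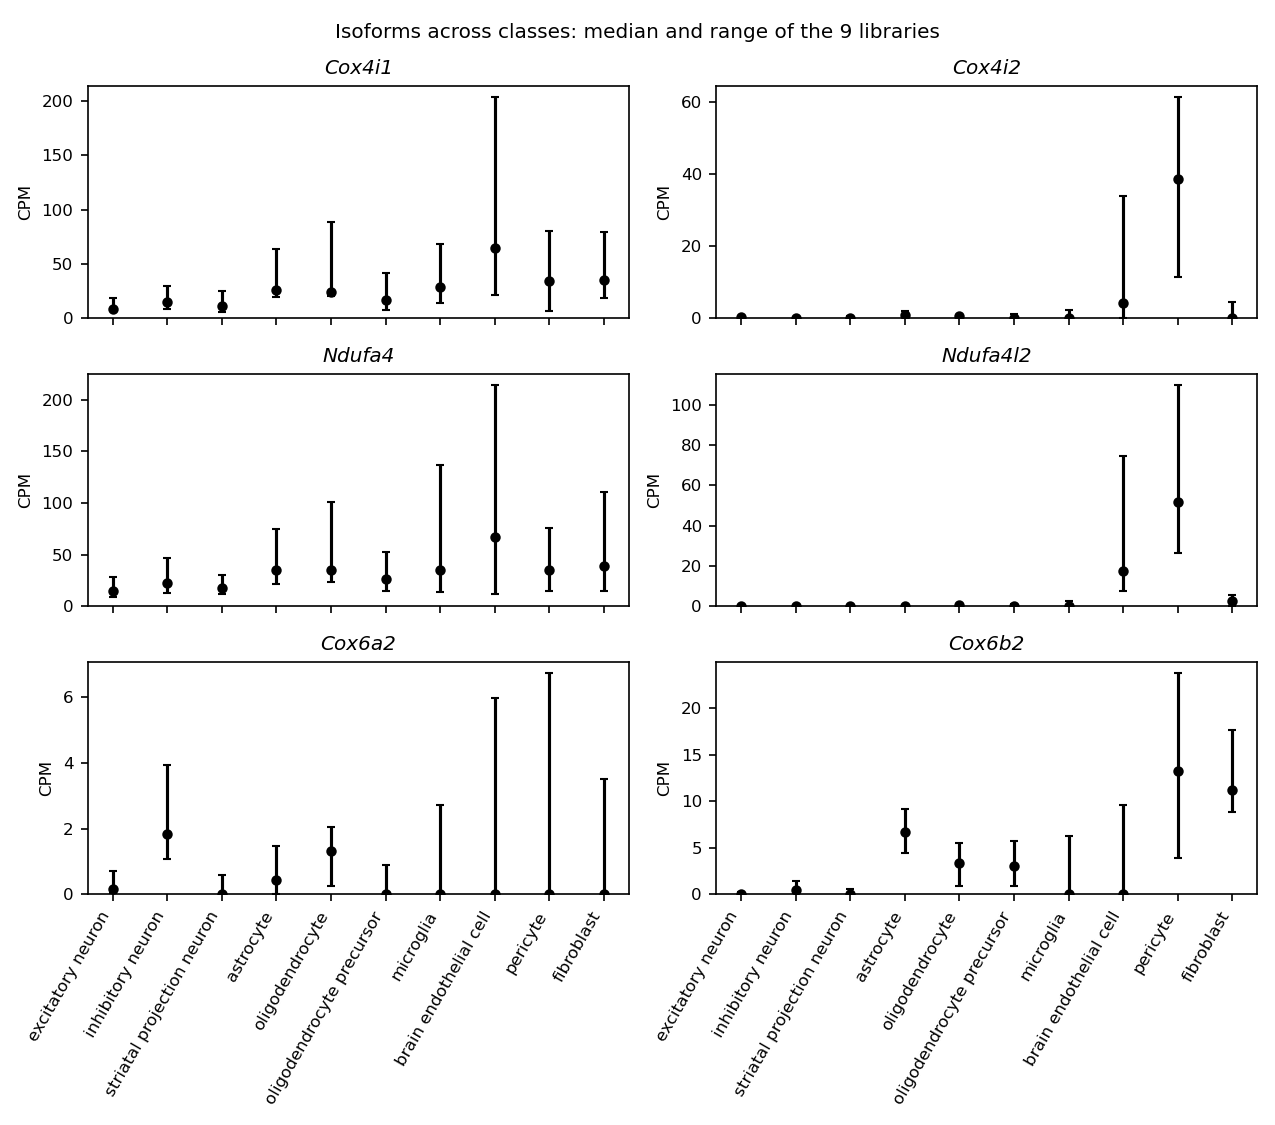
Level of 6 genes across the 10 classes: median of the 9 libraries (points) and the lowest to highest library (bars), in CPM after TMM scaling, each panel with its own axis from 0. Cox4i2 and Ndufa4l2 stand out in pericytes with medians of 38.6 and 51.5, and Cox6a2 is near or at 0 in most classes.

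Genes of the pathway outside the symbol rule were counted from fixed lists, and the shares of all genes called in each class, given above, are the background for these counts. Of the electron carriers and remaining subunits, 5 of 6 listed genes were in the files under those symbols and 4 were tested in oligodendrocytes. Of these 3 rose with age: Atpif1, the inhibitor of ATP hydrolysis by complex V, with 0.77 ± 0.19 (log2 ± SE, edgeR adjusted p = 0.0143), Cycs, cytochrome c itself, with 1.33 ± 0.42 (log2 ± SE, edgeR adjusted p = 0.0391), and Cyc1, cytochrome c1 of complex III, with 0.69 ± 0.21 (log2 ± SE, edgeR adjusted p = 0.0326). With treatment Atpif1 fell by 0.86 ± 0.19 (log2 ± SE, edgeR adjusted p = 0.0187). Atpif1 also rose with age in excitatory neurons, inhibitory neurons and microglia.

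Among 34 other assembly factors, 6 rose and 1 fell with age in excitatory neurons, 6 of 34 rose in oligodendrocytes, and 0 rose and 4 fell there with treatment. Coa3, needed for complex IV assembly, had 1.42 ± 0.32 (log2 ± SE, edgeR adjusted p = 0.00963) with age and -1.39 ± 0.31 (log2 ± SE, edgeR adjusted p = 0.0202) with treatment in oligodendrocytes. Of the mitochondrially encoded subunits, 2 of 10 tested rose with age in oligodendrocytes and 4 fell with treatment, mt-Co3 most, with -1.39 ± 0.25 (log2 ± SE, edgeR adjusted p = 0.0105). Their UMIs are RNA from outside the sorted nuclei, so these calls are not read as changes in nuclear transcripts. Of 13 citric acid cycle genes, 1 rose and 1 fell with age in oligodendrocytes, and the median was 0.05. Mdh2, mitochondrial malate dehydrogenase, rose by 0.87 ± 0.17 (log2 ± SE, edgeR adjusted p = 0.00469), and Sucla2 had -0.45 ± 0.14 (log2 ± SE, edgeR adjusted p = 0.0389).

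Of 12 tested regulators of mitochondrial genes, 0 rose and 3 fell with age in excitatory neurons (Gabpa, Ppargc1b and Pprc1; 6.77% of all genes fell there), 1 fell in astrocytes (Ppargc1b; 7.09%) and 2 fell in oligodendrocytes (10%). With counts this small, nothing is read from them about the list. In oligodendrocytes Ppargc1b, a coactivator of mitochondrial genes, had -1.36 ± 0.34 (log2 ± SE, edgeR adjusted p = 0.0151) with age and 1.37 ± 0.34 (log2 ± SE, edgeR adjusted p = 0.0271) with treatment. Its relative Ppargc1a had -0.88 ± 0.23 (log2 ± SE, edgeR adjusted p = 0.0184) and 0.79 ± 0.23 (log2 ± SE, edgeR adjusted p = 0.0496). In excitatory neurons Ppargc1a was not called with age, at 0.12 ± 0.15 (log2 ± SE, edgeR adjusted p = 0.632).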

How the data were processed

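Nuclei of pooled cortex and hippocampus from 9 mice were profiled by droplet 3′ RNA sequencing, and each library is 1 mouse. The deposited matrices hold raw UMI counts per gene and nucleus on GRCm38 (mm10), made by the authors with Cell Ranger (7.2.0 in the matrix headers, 4.0.0 in the submitters' processing notes). The authors' later removal of free RNA and doublets is not in these matrices, and whether intronic reads were counted is not given in the sources used here.

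Nuclei with 200 to 5000 genes and under 10% mitochondrial counts were kept (74895 of 77823 barcodes), simulated-doublet neighbours were removed at 0.8% per 1000 barcodes, and 70404 nuclei remained. Depth was 36029146 to 60601935 counts per library. Nuclei were clustered on 2000 variable genes, members left out, with 15 principal components (Python 3.11.15, igraph 0.11.9, Leiden resolution 0.3) and named from markers. Counts were summed per library and class and tested with edgeR 4.0.16 (R 4.3.3; quasi-likelihood, TMM, filterByExpr with a minimum count of 10, all 9 libraries in 1 fit), two-sided, with Benjamini-Hochberg adjustment over all genes and a threshold of 0.05. The scripts were tested on simulated data. DESeq2 1.42.0, other scaling, filters, doublet handling, clustering, free RNA subtraction, a mitochondrial covariate and leaving out each library were alternatives.

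Named genes were, per comparison and class, up to 3 rises and 3 falls with the largest changes among called members with a mean of at least 50 UMIs per library, the member with most UMIs per complex, and listed isoforms, at most 30 per comparison. Members, lists and tests were chosen with earlier results of these data known. The 50 bases after gene starts were searched but are not shown.

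In BECs 377 to 884 member UMIs stood behind a library's values, and in excitatory neurons 25764 to 56204, so BEC values are the less precise. The floor given for Cox8c covers counting error only. SDs, SEs and ranges are over libraries and include differences between mice.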

Additional observations from a re-analysis of the deposited data

Results flagged for a closer look

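Of the named genes, 4 differed between oligodendrocytes and excitatory neurons in their change with age, by a test of the class-by-group term with the library as a block (edgeR adjusted p under 0.05). Over all members 10 of 88 were called for this term with age and 5 of 88 with treatment, against 9.43% and 4.63% of 16549 genes, so both counts lie near the background and the values below are descriptions of single genes. The log2 fold change was larger in oligodendrocytes by 0.80 for Cox5a (edgeR adjusted p = 0.00413), by 0.73 for Cox6a1 (edgeR adjusted p = 0.0158), by 0.67 for Cox7a2 (edgeR adjusted p = 0.0163) and by 0.58 for Cox8a (edgeR adjusted p = 0.0304). The change with treatment also differed for 4 named genes, with a difference of -0.96 for Ndufb9 (edgeR adjusted p = 0.0187), -0.68 for Cox5a (edgeR adjusted p = 0.0199), -0.64 for Cox7a2 (edgeR adjusted p = 0.0354) and -0.63 for Cox4i1 (edgeR adjusted p = 0.0191). Free RNA was estimated at 48.4 to 54.8% of UMIs in oligodendrocytes and 22.5 to 27.2% in excitatory neurons, and its part in these differences was not tested.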

How the results depend on the processing

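Under DESeq2 ageing calls numbered 10 in inhibitory neurons, 2 in microglia and 0 in BECs, and treatment calls 27 in excitatory neurons, 6 in inhibitory neurons, 1 in microglia and 0 in BECs. Without a filter on low counts there were 12 ageing and 12 treatment calls in inhibitory neurons, 8 ageing calls in BECs and 7 treatment calls in microglia, and with RLE size factors 1 treatment call in microglia. Without doublet removal ageing calls were 2 in inhibitory neurons, 8 in astrocytes, 3 in microglia and 0 in BECs, and treatment calls 13 in astrocytes and 0 in BECs. Finer clustering gave 31 ageing and 14 treatment calls in oligodendrocytes and 1 treatment call in microglia. With free RNA subtracted, 15 ageing calls remained in number in oligodendrocytes and 0 in inhibitory neurons, astrocytes, microglia and BECs, and treatment calls were 6 in oligodendrocytes and 0 in excitatory neurons, astrocytes, microglia and BECs. With the mitochondrial share as a covariate, ageing calls were 0 in all classes but astrocytes (24), and treatment calls 9 in astrocytes and 0 in the others. The cause of these shifts was not tested. Counts in this section stand without the share of all genes called in the same fit, so they are not read as results about the members.

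The replicate numbers did not pair the samples: same-numbered libraries of different groups correlated from -0.27 to 0.26 in excitatory neurons. With the replicate block, ageing calls were 28, 0, 23, 48, 3 and 3 and treatment calls 12, 0, 23, 41, 1 and 2 in excitatory neurons, inhibitory neurons, astrocytes, oligodendrocytes, microglia and BECs.

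Leaving out each library in turn gave, in the same order, ageing calls of 1 to 45, 0 to 18, 4 to 35, 27 to 56, 1 to 15 and 0 to 6, and treatment calls of 0 to 34, 0 to 4, 0 to 33, 5 to 50, 0 to 8 and 0 to 8.

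Signs turned only for named genes that were not called. The longer Atp5o locus (ageing, oligodendrocytes) was at -0.033 with finer clustering and ran from -0.20 to 0.17 over the 9 fits that each left out 1 library. Cox6a1 (ageing, excitatory neurons) was at -0.00295 with DESeq2, -0.00305 without doublet removal, -0.00114 with free RNA subtracted and -0.018 with the mitochondrial covariate, and from -0.077 to 0.11 over the 9 fits. With treatment in oligodendrocytes, Ndufs4 was at -0.027 without doublet removal and from -0.056 to 0.14 over those fits, Sdha from -0.00409 to 0.18, and Cox7a2l at 0.051 with the mitochondrial covariate. Sdhd was at 0.000972 without the filter, 0.014 with the replicate block, 0.045 with finer clustering, 0.12 with free RNA subtracted and 0.63 with the mitochondrial covariate, and from -0.22 to 0.34 over the 9 fits. Cox7b2 (treatment, excitatory neurons) ran from -0.30 to 0.00681.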
